A study of Mus musculus with 2 samples.

Results

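The ADAMTS, MMP and TIMP genes encode secreted or membrane-bound metalloproteases of the extracellular matrix, their relatives without a protease domain (the ADAMTS-like genes) and the tissue inhibitors of metalloproteases. The members were every gene of the deposited tables whose symbol is Adamts, Adamtsl, Mmp or Timp followed by digits, and 49 of 31253 genes matched: 19 Adamts, 5 Adamtsl, 21 Mmp and 4 Timp genes. They were followed across cell classes and genotypes in mouse brain at stage E12.5, in cells taken with CD31 microbeads after enzymatic digestion. There was 1 library from Foxq1flox/flox embryos, in which the gene of the forkhead transcription factor FOXQ1 carries flox sites, and 1 from Foxq1iECKO embryos. The driver of the deletion in Foxq1iECKO, any agent given, the deleted part of Foxq1, and the number of embryos per library are not stated by the labels.

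MMPs are made as inactive precursors, are opened by other proteases, and together can cleave collagens, elastin and most other matrix proteins. ADAMTS proteases cut proteoglycans such as versican and aggrecan or trim procollagens, and TIMPs block MMPs, with TIMP3 also blocking several ADAM and ADAMTS proteases. In growing brain vessels, endothelial cells and pericytes share a basement membrane, which these enzymes can open or remodel.

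Each library is 1 sample, so no test between genotypes was possible and no difference below has a replicate check. UMIs (unique molecular identifiers, 1 per captured transcript end) were added up by class and library and scaled to 1000000 UMIs of the same cells (CPM). In each pair of values the Foxq1flox/flox library stands first, and square brackets hold 95% intervals (exact Poisson for a level, exact conditional for a ratio, Clopper-Pearson for a share), which cover counting error only. A gene was taken as measured at 10 CPM or more in at least 1 library, and as higher or lower by size where the ratio reached 1.5-fold and its interval left out a ratio of 1. Since 1 tag marks 1 transcript end, levels are not scaled by gene length, but capture can differ between genes, so levels are compared mainly within a gene.

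The libraries held 76580165 and 72445925 UMIs over 15837 and 15108 barcodes, and 13399 and 12592 cells were used after filters and removal of predicted doublets. They shared 270 barcodes. Of these, 173 were used in both libraries and 10.4% fell in the same class, against 11.6% from the sizes of the classes alone. Although the labels call the samples endothelial cells, the endothelial-like class made up 16.9% and 12.7% of the cells used. It held each of its 17 markers at 10 CPM or more. The 26 clusters were named from marker lists without the members among the clustering genes, and 13 classes had 100 or more cells in both libraries. A cluster of 491 and 844 barcodes carried pericyte and endothelial markers together, at a median of 9376 and 8725 UMIs against 3754 and 3703 in the pericyte-like class and 4196 and 3955 in the endothelial-like class. It is called mixed below, and whether its barcodes hold 1 cell or several was not tested. Foxq1 itself was at 437 [426, 447] and 145 [138, 153] CPM in the endothelial-like class, a log2 ratio of -1.59 [-1.67, -1.50]. In the barrier-type subclusters alone it was at 931 and 459 CPM, a log2 ratio of -1.02, and in the pericyte-like class at 626 and 539 CPM. Foxq1 is among the markers that named the barrier-type subclusters, so its ratio there is not independent of how their cells were chosen.

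Of the 49 members, 33 were measured in at least 1 of the 13 classes, 16 were not, and Mmp7 had no UMI in either library. The highest class was the same in both libraries for 29 of the 33. Over all genes that were measured in any class, this held for 72%. Osteogenic-like cells were highest for 6 members, pericyte-like cells for 5, and fibroblast-like, cartilage-like and macrophage-like cells for 3 each. Endothelial-like cells were highest for Adamts9 and Mmp28. How often each class was highest over all genes was not computed, so these counts have no background. In the number of measured members, pericyte-like and osteogenic-like cells led with 22 each, and leukocyte-like cells had 9. Of all genes, 8849 were measured in pericyte-like, 8771 in osteogenic-like and 8748 in leukocyte-like cells.

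**Figure D1:**
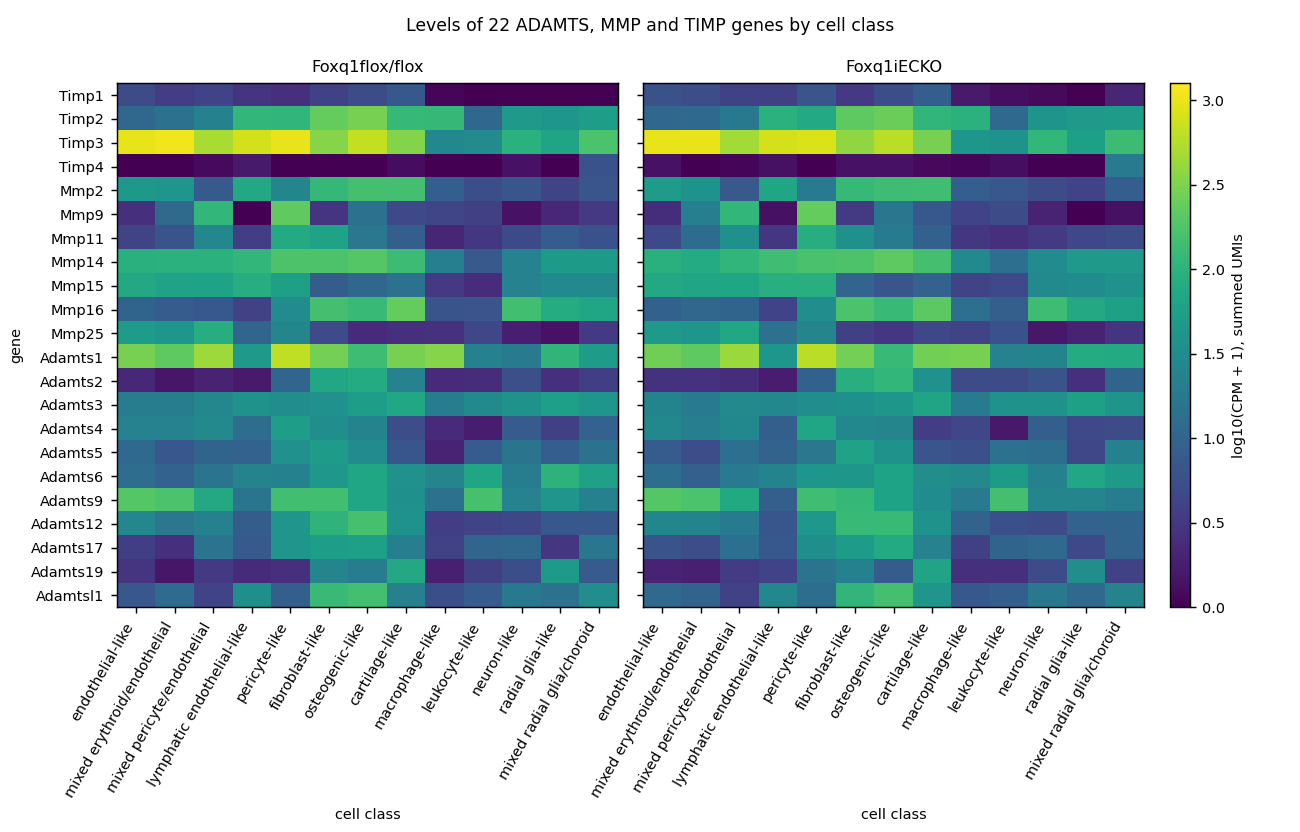
Level of the 22 genes described in full, as the colour of log10(CPM + 1) from UMIs summed over each class, in the Foxq1flox/flox library (left) and the Foxq1iECKO library (right). Timp3 forms the brightest row, with 967 and 1001 CPM in endothelial-like cells, and Mmp9 is bright in the pericyte-like column at 217 and 235 CPM.

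Timp3, the matrix-bound inhibitor, was the main TIMP transcript of vessel cells. It lies at chr10:86300372-86349506 on the plus strand (mm10, GENCODE M21). Its level was 967 [951, 982] and 1001 [981, 1021] CPM in endothelial-like cells, 983 [927, 1041] and 841 [791, 893] CPM in pericyte-like cells and 787 and 793 CPM in lymphatic endothelial-like cells. Both libraries thus had high levels in each of these vessel classes, and a lower one in the mixed cluster, at 505 [485, 526] and 469 [454, 485] CPM. The mixed erythroid and endothelial cluster, at 1093 and 983 CPM, was the highest of the 13 classes in the Foxq1flox/flox library. Of the clusters under 100 cells, the neural crest-like one (28 and 75 cells) was at 2061 and 1745 CPM. The megakaryocyte-like one (74 and 50 cells) was at 916 and 1181 CPM and the skeletal muscle-like one at 183 and 202 CPM. Among the other classes osteogenic-like cells had 661 and 601 CPM, and fibroblast-like (343 and 379 CPM) and cartilage-like cells (333 and 289 CPM) had similar levels. The lowest levels were in macrophage-like cells (26.9 and 42.0 CPM) and leukocyte-like cells (30.1 and 38.6 CPM). Timp3 gave 98.6% [98.4, 98.8] and 98.5% [98.2, 98.7] of the UMIs of the 4 TIMP genes in endothelial-like cells. After each cell was thinned to 2000 UMIs, 63.1% [60.9, 65.3] and 62.3% [59.6, 65.0] of the endothelial-like cells had a Timp3 UMI, against 12.9% and 16.8% of neuron-like cells (without thinning, 74.2% and 70.5% against 18.5% and 23.6%). Thinning left out 352 and 313 of the endothelial-like and 245 and 189 of the neuron-like cells, and the median depths before it were 4196 and 3955 UMIs against 3272 and 3292.

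Timp2, a soluble inhibitor that also takes part in the activation of MMP2 by MMP14, was low in blood endothelium but not in pericytes. It was highest in osteogenic-like cells, at 292 [264, 321] and 250 [231, 271] CPM, and in fibroblast-like cells, at 234 and 214 CPM. In endothelial-like cells it was at 9.87 [8.36, 11.6] and 10.2 [8.31, 12.4] CPM, the lowest of the 13 classes, although leukocyte-like cells (10.1 and 10.4 CPM) were within its interval, while lymphatic endothelial-like cells had 113 and 94.9 CPM. Pericyte-like cells had 108 and 76.7 CPM, and macrophage-like cells, where Timp3 was low, had 116 and 93.4 CPM. There Timp2 made up 81.0% [78.6, 83.3] and 68.6% [66, 71.0] of TIMP UMIs. In the 12 other classes Timp3 was the TIMP gene with the most UMIs in both libraries, for example with 59.1% and 63.7% in fibroblast-like cells and 89.9% and 91.1% in pericyte-like cells.

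Timp1, an inducible inhibitor, and Timp4 were low. Timp1 reached 6.10 and 7.37 CPM in cartilage-like cells and 4.08 and 4.80 CPM in endothelial-like cells, and was below 10 CPM in the 13 classes. Timp4 was measured in the mixed radial glia and choroid plexus cluster, at 5.05 [2.31, 9.58] and 17.6 [12.8, 23.5] CPM, from 9 and 45 UMIs. Each of Timp1, Timp3 and Timp4 lies over a synapsin gene on the other strand (Syn1, Syn3 and Syn2), and the labels do not say whether the counting used strand. Without strand, UMIs of the partners cannot be told apart. In all, 18 members overlap another annotated gene, 16 of them on the other strand, among them Adamts4, Adamts9, Mmp11, Mmp12 and Mmp28. Timp2 (with Cep295nl) and Adamtsl1 (with Sh3gl2) overlap on the same strand.

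Among the gelatinases, which cut denatured collagen and type IV collagen, Mmp9 was highest in pericyte-like cells. It is among the leading genes of that cluster and of the mixed one, but was not used to cluster. Mmp9 (chr2:164940780-164955850, plus strand) was at 217 [191, 245] and 235 [209, 263] CPM in pericyte-like cells and at 112 [103, 122] and 111 [104, 119] CPM in the mixed cluster. The intervals of the libraries overlapped in both. Endothelial-like cells had 1.65 and 1.53 CPM. Lymphatic endothelial-like cells had 0 of 2958909 UMIs, where a floor of 3 counts equals 1.01 CPM, and 0.361 CPM from 1 UMI. The next classes were osteogenic-like cells at 13.3 and 15.6 CPM and the mixed erythroid and endothelial cluster at 10.7 and 20.9 CPM. On thinned cells, 27.6% and 25.9% of pericyte-like cells had an Mmp9 UMI, against 0.208% and 0.156% of endothelial-like and 0.0569% and 0.0892% of neuron-like cells. Unthinned, these shares were 39.4% and 38.0%, 0.661% and 0.690%, and 0.150% and 0.382%. Thinning left out 35 and 44 pericyte-like cells. The other gelatinase, Mmp2, was spread over connective tissue: 151 and 135 CPM in osteogenic-like, 149 and 141 in cartilage-like and 115 and 117 in fibroblast-like cells. In pericyte-like cells Mmp2 was at 25.6 and 17.8 CPM, below its level in the connective tissue classes, where Mmp9 was at 15.6 CPM or less.

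**Figure D2:**
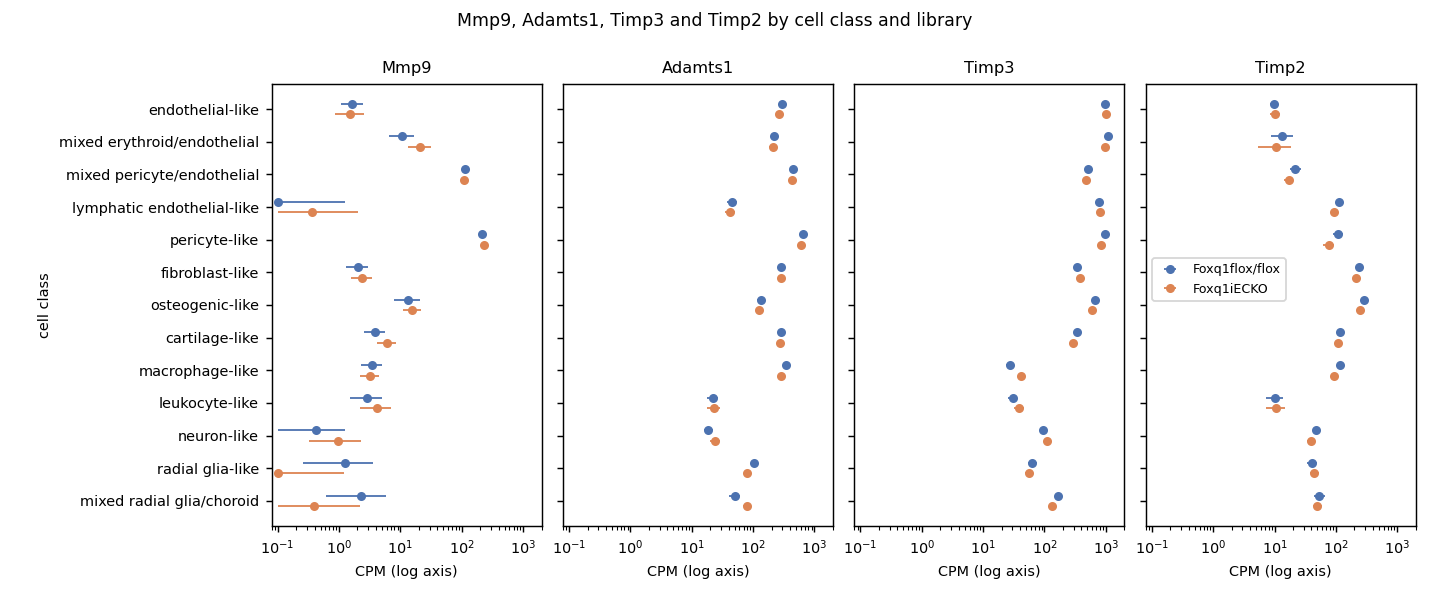
Level in CPM (log axis) of Mmp9, Adamts1, Timp3 and Timp2 by class, with 95% Poisson intervals, in the Foxq1flox/flox (blue) and Foxq1iECKO (orange) libraries; values below 0.1 CPM are drawn at 0.1. Mmp9 stands out at 217 and 235 CPM in pericyte-like cells, and Timp2 is near 10 CPM in endothelial-like cells, where Timp3 is near 1000 CPM.

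The membrane-type proteases differed in breadth, and Mmp14 was measured in each of the 13 classes. Mmp14, which activates Mmp2 at the cell surface, was at 189 and 214 CPM in osteogenic-like, 173 and 173 in fibroblast-like, 171 and 162 in pericyte-like and 92.9 and 93.1 CPM in endothelial-like cells. It was at 20.5 and 29.6 CPM in macrophage-like cells and 6.26 and 12.7 CPM in leukocyte-like cells. Mmp15 had its highest levels in vessel classes and was measured in 9 of the 13 classes. It was at 84.5 and 88.1 CPM in lymphatic endothelial-like cells, 72.9 and 73.7 in endothelial-like cells and 57.2 and 88.8 in pericyte-like cells. In fibroblast-like cells Mmp15 was at 7.12 and 9.12 CPM. Mmp16 was low in vessels. It reached 234 [223, 245] and 210 [198, 223] CPM in cartilage-like cells, 151 and 165 in fibroblast-like cells and 143 and 136 in neuron-like cells, and 8.95 and 8.07 CPM in endothelial-like cells. Mmp16 gave 64.5% [62.1, 66.9] and 60.3% [57.4, 63.2] of the MMP UMIs of neuron-like cells. Mmp24, another membrane-type member, was measured in neuron-like cells, at 17.6 and 15.7 CPM, and was below 3 CPM elsewhere. Mmp25, which is anchored by a lipid, was highest in the mixed cluster at 85.6 and 69.3 CPM and in endothelial-like cells at 51.2 and 45.2 CPM. Mmp17 was not measured, with 4.49 and 3.91 CPM in its highest class.

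Of the remaining secreted MMPs, Mmp11, an unusual member that is activated inside the cell, was highest in pericyte-like cells (78.5 and 83.9 CPM), followed by fibroblast-like cells (62.6 and 35.2 CPM). Mmp28 was highest in endothelial-like cells at 39.4 and 33.2 CPM, and Mmp19 in macrophage-like cells at 17.6 and 22.4 CPM. Mmp21 and Mmp23 stayed below 2 CPM in the 13 classes.

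The ADAMTS proteases of proteoglycans included Adamts1 and Adamts9, the 2 ADAMTS genes with the highest levels in endothelial-like and in pericyte-like cells. Adamts1 (chr16:85793827-85803113, minus strand), which cuts versican and binds VEGF, was at 642 [597, 690] and 593 [551, 638] CPM in pericyte-like cells, 443 and 430 in the mixed cluster, 340 and 286 in macrophage-like cells and 294 and 267 CPM in endothelial-like cells. Lymphatic endothelial-like cells differed from the endothelial-like cells, with 45.6 and 41.9 CPM. Within the macrophage-like class, Adamts1 was at 550 [525, 575] and 507 [483, 533] CPM in the cluster led by the microglial genes P2ry12 and Siglech, and at 195 and 216 CPM in the cluster led by Lyve1 and Mrc1. (This and the following values for single clusters were chosen after the values were seen.) Within the endothelial-like class, it ranged from 120 and 112 CPM in a barrier-type subcluster to 917 and 942 CPM in a subcluster whose leading genes are Egr1 and Fos, early response genes. Adamts9 (chr6:92772699-92943492, minus strand), a versican-cutting member also needed for cilia, was highest in endothelial-like cells at 193 [186, 200] and 190 [181, 199] CPM. It was at 157 and 153 CPM in leukocyte-like cells, of which the cluster led by the mast cell proteases Cpa3 and Cma1 had 312 and 255 CPM, and at 146 and 140 CPM in pericyte-like cells. Lymphatic endothelial-like cells again were low, at 14.9 and 7.58 CPM. On thinned cells, an Adamts1 UMI was found in 54.0% and 55.2% of pericyte-like cells, 32.6% and 30.5% of endothelial-like cells and 3.75% and 4.01% of neuron-like cells. An Adamts9 UMI was found in 29.2% and 28.3% of endothelial-like and 3.81% and 4.28% of neuron-like cells. The unthinned shares for Adamts1 were 69.0% and 60.7%, 50.4% and 48.1%, and 5.44% and 6.64%, and for Adamts9 50.9% and 46.6%, and 5.79% and 6.26%.

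Adamts4, Adamts5, Adamts8, Adamts15 and Adamts20, of which the first pair are known as aggrecanases, were lower. Adamts4 was highest in pericyte-like cells at 52.0 and 67 CPM and was at 22.5 and 27.2 CPM in endothelial-like cells. Adamts5 was highest in fibroblast-like cells at 51.3 and 60.7 CPM, in which the cluster led by Cldn11 and Foxd1 had 154 and 136 CPM. Adamts8 was at 35.6 and 34.2 CPM in the mixed cluster and 23.5 and 18.5 CPM in endothelial-like cells. Adamts20 was highest in fibroblast-like cells, at 50.4 and 31.1 CPM, and Adamts15 was not measured.

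The procollagen-trimming members differed in reach. Adamts2, which trims fibrillar procollagens, was at 79.5 and 112 CPM in osteogenic-like and 70.9 and 85.6 CPM in fibroblast-like cells, against 1.25 and 1.84 CPM in endothelial-like cells. Adamts3, which also takes part in the activation of VEGFC, had a narrower range. It was measured in each of the 13 classes, from 19.1 and 17.8 CPM in macrophage-like to 71.5 and 62.9 CPM in cartilage-like cells. Adamts14 was not measured. Adamts12 was at 155 and 122 CPM in osteogenic-like, 102 and 127 in fibroblast-like and 25.9 and 25.2 CPM in endothelial-like cells. Its relative Adamts7 and the von Willebrand factor protease gene Adamts13 were not measured, and Adamts13 reached 2.13 CPM at most in the 13 classes and 3.40 CPM in the barrier-type endothelial subclusters of the Foxq1flox/flox library.

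The members linked to microfibrils or of less known function had other patterns. Adamts6 was highest in radial glia-like cells at 101 and 69.4 CPM, and Adamts10 in fibroblast-like cells at 17 and 16.7 CPM, with 2.53 and 5.47 CPM in macrophage-like cells. Adamts17 was highest in osteogenic-like cells at 55.1 and 78.0 CPM, Adamts19 in cartilage-like cells at 73.0 and 63.3 CPM, and Adamts16 in pericyte-like cells at 23.0 and 18.6 CPM. Adamts18 was highest in neuron-like cells at 25.1 and 21.4 CPM. Of the ADAMTS-like genes, Adamtsl1 was at 149 and 153 CPM in osteogenic-like and 126 and 110 CPM in fibroblast-like cells, and Adamtsl3 at 23.7 and 27.1 CPM in osteogenic-like cells. Adamtsl2, Adamtsl4 and Adamtsl5 were not measured in any class.

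Within the endothelial-like class, the cells of 2 barrier-type subclusters were set beside those of the 6 other subclusters. The barrier-type cells, 908 and 483 in number, were named from markers such as Slco1c1 and Mfsd2a, and the other subclusters held 1363 and 1112 cells. The list of barrier markers also holds Foxq1, which was not kept out of the clustering, so membership is not independent of the Foxq1 level. Of 18 members measured, 5 were higher by size in the barrier-type cells in both libraries and 6 were lower. Over all genes measured, 8.26% were higher and 6.17% lower by the same rule. A cluster set against the rest is a description and not a test, and Foxq1 is itself a leading gene of 1 of the barrier-type subclusters.

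Adamts8 was at 44.2 and 46.0 CPM in barrier-type cells and 9.32 and 9.81 CPM in the others, log2 ratios of 2.25 [1.89, 2.62] and 2.23 [1.79, 2.68]. Mmp25 was at 84.3 and 84.7 CPM against 28.5 and 32.7 CPM. Adamtsl2, which binds fibrillin and latent TGF-beta complexes, was at 13.3 and 21.7 CPM against 1.89 and 0.672 CPM, so it was measured there although it was measured in no whole class. Mmp28 (52.1 and 61.3 CPM against 30.6 and 24.3) and Adamts6 (14.7 and 17.9 against 9.65 and 10.5) were the other members on this side. Of these 5 genes, all but Adamts8 were highest in both libraries in the barrier-type subcluster led by Fam13a and Cxcl12, where Mmp28 was at 140 and 124 CPM against 39.8 and 41.5 CPM in the one led by Foxq1. Adamts8 was at 42.3 and 72.7 CPM in the first of these and at 44.5 and 37.5 CPM in the second.

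On the other side, Mmp2 was at 8.26 and 11.9 CPM in barrier-type cells and 67.9 and 63 CPM in the other endothelial cells, log2 ratios of -3.04 [-3.48, -2.63] and -2.40 [-3.01, -1.85]. Timp3 was at 456 [439, 473] and 381 [356, 406] CPM against 1317 and 1197 CPM, log2 ratios of -1.53 and -1.65. Adamts9 (129 and 118 CPM against 237 and 212), Adamts4 (13.1 and 18.7 against 28.9 and 29.8), Mmp15 (51.3 and 52.8 against 87.7 and 80.2) and Adamtsl1 (3.24 and 5.53 against 7.65 and 11.8) were the other members lower in barrier-type cells. Adamts1, at 289 and 289 CPM against 297 and 260 CPM, and Mmp14, at 75.3 and 74.9 CPM against 105 and 98.8 CPM, were inside the 1.5-fold limit.

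**Figure D3:**
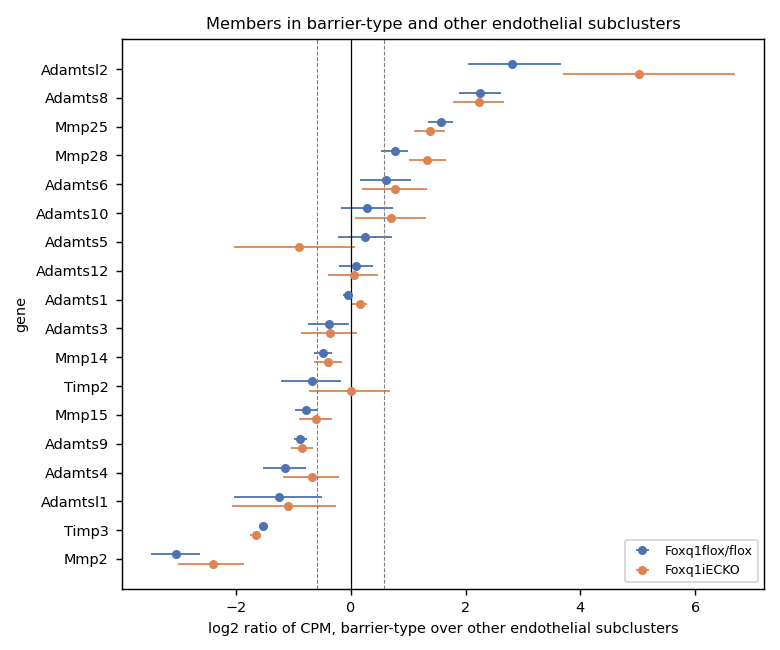
Log2 ratio of CPM in barrier-type over other endothelial subclusters for the 18 measured members, with 95% counting intervals, in the Foxq1flox/flox (blue) and Foxq1iECKO (orange) libraries; dashed lines mark 1.5-fold. Adamtsl2, Adamts8, Mmp25, Mmp28 and Adamts6 lie to the right in both libraries, and Mmp2 and Timp3 lie farthest to the left.

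The upstream sequences of members that are higher together in barrier-type cells are shown, where a promoter was found, because FOXQ1 is a forkhead factor. RefSeq promoters (GRCm38.p6) matched 34 of the 49 members, among them Adamtsl2, Mmp25 and Mmp28. Adamts8 and Adamts6 were not among the 34 and were not searched. The 250 bases before each start were searched on both strands for the forkhead letters TGTTTAC, the AP-1 letters TGANTCA and the TATA letters TATAAA, none of which is contained in another. Capitals mark matches.
Adamtsl2 (GRCm38.p6, chr2:27079129-27079378, plus strand): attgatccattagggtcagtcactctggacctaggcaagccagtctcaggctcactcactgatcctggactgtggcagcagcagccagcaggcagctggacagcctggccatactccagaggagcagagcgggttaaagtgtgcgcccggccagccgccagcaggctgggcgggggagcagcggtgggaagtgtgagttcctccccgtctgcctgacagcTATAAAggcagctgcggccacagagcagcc
Mmp25 (GRCm38.p6, chr17:23645270-23645519, minus strand): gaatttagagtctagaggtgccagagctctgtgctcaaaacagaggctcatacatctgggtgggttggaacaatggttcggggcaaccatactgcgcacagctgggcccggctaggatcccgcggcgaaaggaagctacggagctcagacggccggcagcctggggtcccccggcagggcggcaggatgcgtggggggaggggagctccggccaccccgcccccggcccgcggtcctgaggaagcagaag
Mmp28 (GRCm38.p6, chr11:83463041-83463290, minus strand): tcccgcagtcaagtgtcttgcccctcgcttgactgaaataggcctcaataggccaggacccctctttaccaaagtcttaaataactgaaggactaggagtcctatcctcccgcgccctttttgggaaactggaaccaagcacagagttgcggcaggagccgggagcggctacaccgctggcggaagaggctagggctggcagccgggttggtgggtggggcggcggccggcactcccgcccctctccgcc
Adamtsl2 holds the TATA letters from 30 bases before its start, and these windows of Mmp25 and Mmp28 hold none of the 3 motifs. Forkhead letters were found upstream of 2 members, Mmp10 and Mmp13, neither of them measured in endothelial-like cells. Of all 32851 RefSeq promoters, 3.17% hold the forkhead letters, 6.75% the AP-1 letters and 12.4% the TATA letters in a window of this length. A match is a description of letters, and its absence says nothing of the factor.

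Between genotypes, the members measured in endothelial-like cells differed little. Of 17 measured members, 1 was higher and 0 were lower by size in the Foxq1iECKO library, against 1.01% of all measured genes in each direction. With no limit on level other than 3 UMIs, 3 members were higher (Adamtsl1, Timp4 and Adamts17) and 2 lower (Adamts13 and Mmp17). The 1.01% does not apply at this limit, where the share of all genes called was not computed. Timp4 rests on 0 and 4 UMIs there. Adamts13 had 22 and 0 UMIs in the class, 1.45 and 0 CPM, which puts the upper limit of its log2 ratio at -1.82, and 21 of the 22 were in barrier-type cells. The median log2 ratio of the 17 was 0.002, against -0.018 for all 8034 genes measured, and 9 ratios were above 0. Timp3 had a log2 ratio of 0.05 [0.01, 0.09], Mmp14 of 0.002 [-0.12, 0.12] and Adamts9 of -0.03 [-0.11, 0.06]. Their intervals are narrow and lie within 1.5-fold of equality. For Timp3 the direction turned within the class: its log2 ratio was -0.26 [-0.37, -0.15] in the barrier-type cells and -0.14 [-0.18, -0.10] in the other subclusters. Adamts9 had -0.13 [-0.33, 0.07] and -0.16 [-0.25, -0.07] in the same parts.

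The member called higher was Adamtsl1, at 5.86 and 10.3 CPM, from 89 and 101 UMIs, a log2 ratio of 0.82 [0.39, 1.24]. It lies over Sh3gl2 on the same strand, and the call was lost when the mixed cluster was added (0.44), at resolution 0.6 (0.44) and in a gate on single cells by markers (0.16). With stricter cell filters its ratio was 1.44 [0.18, 2.69], but it did not reach 10 CPM. The lowest ratio among the 17 was that of Adamts5, at 10.5 [8.96, 12.3] and 7.05 [5.48, 8.92] CPM, with -0.58 [-1.01, -0.16]. In barrier-type cells alone Adamts5 was at 11.7 and 4.26 CPM, from 72 and 10 UMIs, a log2 ratio of -1.45 [-2.57, -0.49], and lower by size. Over all genes 1.16% were lower and 3.46% higher by size there. Adamtsl2 was higher by size in these cells, with 0.71 [0.18, 1.23] from 82 and 51 UMIs. The barrier-type cells came from the Foxq1-led subcluster (609 and 259 cells) and the Fam13a-led one (299 and 224 cells), and Adamtsl2 had ratios of 0.32 [-0.42, 1.01] and 0.73 [-0.15, 1.64] in them, not called in either. Adamts5 had -1.46 [-2.73, -0.40] in the first, from 67 and 8 UMIs, and 5 and 2 UMIs in the second.

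Several members with a barrier-type pattern had ratios a little below 0 in the whole class, such as Adamts8 with -0.35 [-0.61, -0.08], Mmp28 with -0.25 [-0.44, -0.05] and Mmp25 with -0.18 [-0.35, -0.01]. Within the barrier-type cells their ratios were 0.06 [-0.28, 0.38], 0.23 [-0.06, 0.52] and 0.01 [-0.24, 0.24]. In the other subclusters they were 0.07 [-0.40, 0.54], -0.33 [-0.61, -0.06] and 0.20 [-0.06, 0.46], so that Mmp28 was below 0 there. The barrier-type cells were 908 of 2271 endothelial-like cells in one library and 483 of 1595 in the other. In the other subclusters Adamtsl1 was higher by size, with 0.63 [0.16, 1.10], where 0.64% of all genes were higher and 1.04% lower.

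Mmp9 depends on which barcodes are counted as endothelial. With the mixed cluster added to the endothelial-like class, Mmp9 was at 27.9 and 49.7 CPM, a log2 ratio of 0.83 [0.68, 0.99], and Mmp11 at 8.73 and 17.5 CPM, a ratio of 1.01. Within the mixed cluster alone, Mmp9 was at 112 and 111 CPM with a log2 ratio of -0.01 [-0.17, 0.15], and within pericyte-like cells its ratio was 0.12 [-0.13, 0.36]. The mixed cluster held 491 and 844 barcodes.

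**Figure D4:**
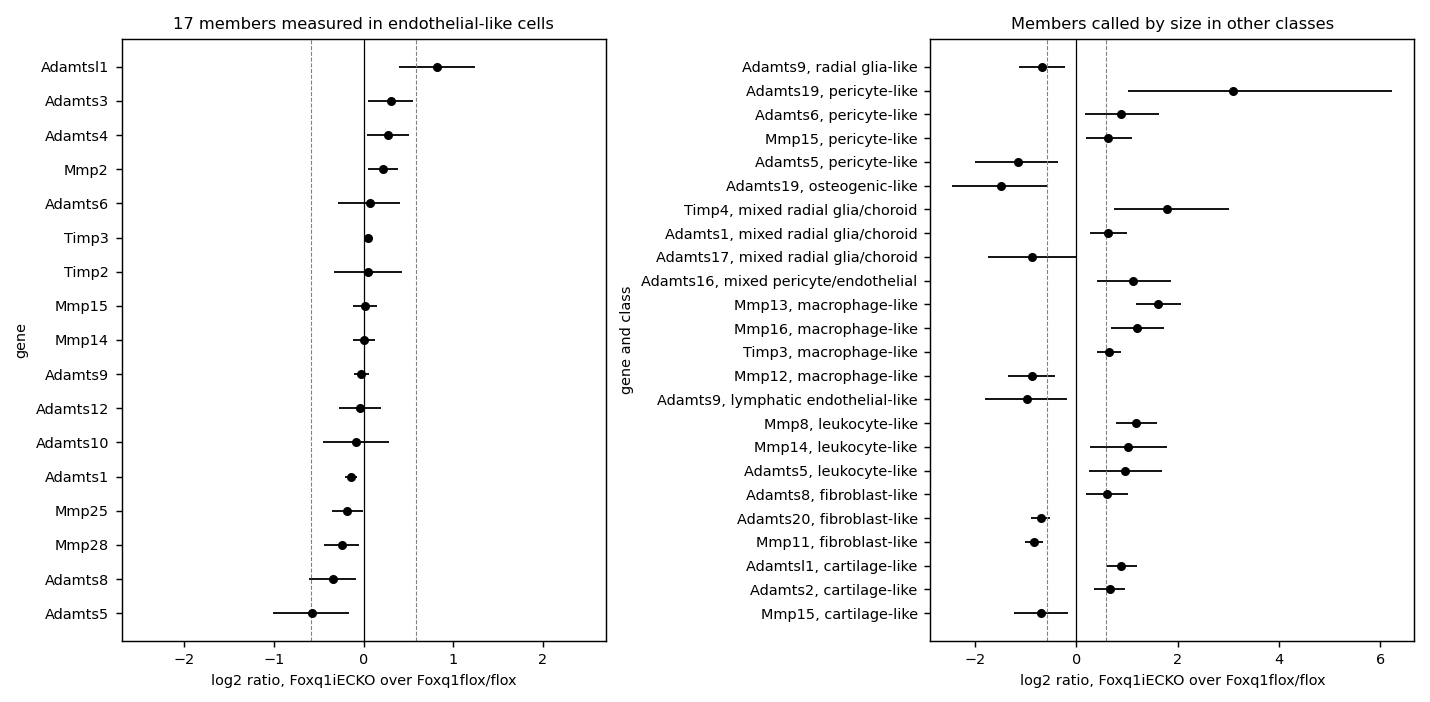
Log2 ratio of CPM, Foxq1iECKO over Foxq1flox/flox, with 95% counting intervals, for the 17 members measured in endothelial-like cells (left) and for the members called by size in other classes (right, on a wider axis); dashed lines mark 1.5-fold. Adamtsl1 is the call on the left at 0.82, and on the right the ratios run from -1.49 for Adamts19 in osteogenic-like cells to 3.09 for Adamts19 in pericyte-like cells.

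In pericyte-like cells 3 of 22 measured members were higher and 1 was lower by size, against 2.5% and 3.83% of all genes. Adamts5 was lower, at 35.8 and 16.1 CPM (42 and 20 UMIs), a log2 ratio of -1.15 [-2.0, -0.35]. Mmp15 was higher, at 57.2 and 88.8 CPM (0.63 [0.18, 1.10]), as was Adamts6 at 22.2 and 41.2 CPM (0.89 [0.18, 1.63]). Adamts19 was at 1.71 and 14.5 CPM, from 2 and 18 UMIs, a log2 ratio of 3.09 [1.03, 6.24]. Fibroblast markers summed to 4881 and 3461 CPM and cartilage markers to 310 and 211 CPM in this class, with 12 of the 14 fibroblast markers at 10 CPM or more in each library. Adamts5 is highest in fibroblast-like cells, and the part of such cells or their RNA in the difference was not tested. In the mixed cluster 1 of 19 members was higher and 0 lower, Adamts16 at 4.64 and 10.0 CPM, against 1.96% and 0.994% of all genes.

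In macrophage-like cells 3 of 11 members were higher and 1 was lower by size, against 3.04% and 0.585% of all genes. Mmp13, a collagenase, was at 6.96 and 21.3 CPM (1.61 [1.18, 2.07]) and Mmp12, the macrophage elastase, at 12.4 and 6.76 CPM (-0.88 [-1.34, -0.41]). Timp3 was at 26.9 [23.4, 30.8] and 42.0 [38.1, 46.2] CPM (0.64 [0.40, 0.89]) and Mmp16 at 5.44 and 12.4 CPM (1.19 [0.68, 1.73]). For the last pair the difference was in the cluster led by Lyve1 and Mrc1, where Timp3 was at 22.7 and 48.6 CPM and Mmp16 at 5.34 and 17.4 CPM. In the microglial cluster Timp3 was at 29.3 and 32.6 CPM. Over the whole class the shares of cells with a Timp3 UMI were closer than the levels. They were 4.58% [3.5, 5.8] and 5.42% [4.4, 6.6] after thinning, and 8.89% and 10.2% without it. Fibroblast markers in macrophage-like cells summed to 211 and 826 CPM, and 4 and 10 of the 14 were at 10 CPM or more. The part of fibroblast RNA in the Timp3 and Mmp16 values was not tested. With the 3 macrophage-like clusters weighted equally, Mmp13 kept its call at 1.09, and those of Timp3 (0.41), Mmp16 (0.59) and Mmp12 (-0.52) were lost.

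In leukocyte-like cells 3 of 9 members were higher and 0 lower by size, against 2.87% and 2.57% of all genes. Mmp8, the neutrophil collagenase, was at 19.5 and 44.3 CPM (1.18 [0.78, 1.60]), Mmp14 at 6.26 and 12.7 CPM and Adamts5 at 6.99 and 13.6 CPM. Fibroblast markers summed to 202 and 379 CPM there, and their part in the Mmp14 and Adamts5 values was not tested. With the 3 clusters weighted equally, the call of Adamts5 was lost at 0.58.

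In fibroblast-like cells 1 of 21 members was higher and 2 were lower by size, against 1.28% and 1.15% of all genes. Mmp11 was at 62.6 and 35.2 CPM (-0.83 [-1.0, -0.65]) and Adamts20 at 50.4 and 31.1 CPM (-0.70 [-0.89, -0.51]). Adamts8 was higher, at 7.21 and 11 CPM. With the 4 fibroblast clusters weighted equally the log2 ratios were -0.46, -0.37 and 0.36, and the calls were lost. Both Mmp11 and Adamts20 were highest in the cluster led by Twist2 and Egfl6, which held 1021 and 735 of the 2611 and 2613 cells. In that cluster Mmp11 was at 116 [107, 126] and 77.5 [68.5, 87.3] CPM and Adamts20 at 87.3 and 63.2 CPM.

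The other classes gave 9 calls. In cartilage-like cells Adamts2 (22.9 and 36.3 CPM) and Adamtsl1 (21.5 and 39.9 CPM) were higher and Mmp15 (13.4 and 8.32 CPM) was lower, of 17 members measured and against 1.73% and 1.85% of all genes. Fibroblast markers summed to 5276 and 8312 CPM in cartilage-like cells, with 11 and 12 of 14 at 10 CPM or more and 1 at 0 in each library. Both higher genes are at higher levels in fibroblast-like cells, and the part of fibroblast RNA was not tested. In the mixed radial glia and choroid plexus cluster Timp4 (1.80 [0.75, 3.02]) and Adamts1 (50.5 and 78.2 CPM) were higher. Adamts17 (15.7 and 8.60 CPM) was lower there, of 13 members and against 2.4% and 4.2%. A Timp4 UMI was found in 5 of 375 (1.33%) and 5 of 385 (1.30%) thinned cells of this cluster. Without thinning the shares were 1.67% and 3.61%. The interval of the Timp4 ratio does not cover the spread of UMIs over cells. With so few cells, whether more cells carried Timp4 cannot be decided. The log2 ratio of Adamts17 there was -0.87 [-1.74, -0.01] but 0.21 with predicted doublets kept, and its direction also turned at both other clustering resolutions. Adamts9 was lower in lymphatic endothelial-like cells (14.9 and 7.58 CPM, 1 of 13 members, background 1.51% higher and 2.36% lower) and in radial glia-like cells (39.9 and 25.1 CPM, 1 of 13, background 1.93% higher and 3.31% lower). In radial glia-like cells, endothelial markers summed to 277 and 146 CPM, with 7 and 4 of 17 at 10 CPM or more and 0 at 0, and erythroid markers to 81.8 and 8.35 CPM, and their part in the Adamts9 value was not tested. Endothelial markers in lymphatic endothelial-like cells summed to 3201 and 3001 CPM. Adamts19 was lower in osteogenic-like cells (19.5 and 6.98 CPM, 1 of 22, background 2.2% higher and 2.99% lower), where the osteogenic markers summed to 1836 and 1089 CPM and the cartilage markers to 1718 and 1506 CPM, whose part was not tested. No member of 16 was called in neuron-like cells, against 2.72% of all genes higher and 3.94% lower. In the neuron-like cluster led by Neurod6, Adamts18 was at 78.0 [65.9, 91.6] and 38.9 [31.5, 47.4] CPM, a log2 ratio of -1.0 [-1.39, -0.63]. That value was chosen after it was seen.

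A run of 8 Mmp genes lies within chr9:7272514-7692341, counted from the first to the last RefSeq start: Mmp13, Mmp12, Mmp3, Mmp10, Mmp8, Mmp27, Mmp20 and Mmp7. Neighbours in this run were found in different cells. Mmp8 was at 153 [120, 191] and 316 [265, 374] CPM in the cluster led by the neutrophil genes S100a8 and S100a9 and at 4.01 CPM or less in the other clusters. Mmp12 was highest in the microglial cluster, at 23.5 [18.7, 29.2] and 13.2 [9.50, 17.8] CPM. Mmp13 was highest in a macrophage-like cluster led by the interferon-induced genes Rsad2 and Ifit1, at 35.5 [22.8, 52.9] and 74.2 [61.2, 89.3] CPM, and second in the cluster led by Lyve1 and Mrc1, at 5.87 and 18.1 CPM. The first of these clusters held 107 and 272 cells. Mmp3 was at 3.75 and 3.57 CPM in the fibroblast cluster led by Aldh1a2, from 13 and 10 UMIs. Mmp27 was at 2.61 and 4.01 CPM in the mast cell cluster, from 5 and 7 UMIs. Mmp10 and Mmp20 had at most 3 UMIs in any cluster. Mmp12 overlaps Mmp1b on the other strand.

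**Figure D5:**
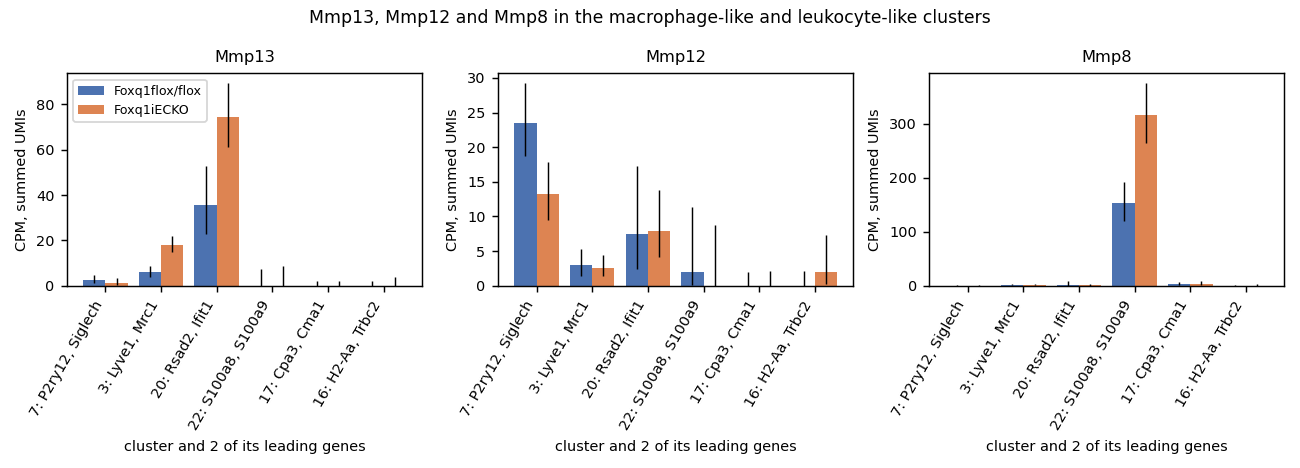
Level in CPM of Mmp13, Mmp12 and Mmp8 in the 3 macrophage-like clusters (left of each panel) and the 3 leukocyte-like clusters (right), each named by its number and 2 leading genes, with 95% Poisson intervals; bars start at 0 and the panels differ in scale. Mmp8 stands in the S100a8 cluster at 153 and 316 CPM, Mmp12 in the P2ry12 cluster at 23.5 and 13.2 CPM and Mmp13 in the Rsad2 cluster at 35.5 and 74.2 CPM.

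The upstream bases of these 3 genes are shown because the genes lie in 1 run yet were highest in different clusters (for Mmp12, the downstream of its RefSeq starts). Capitals again mark the motif letters.
Mmp13 (GRCm38.p6, chr9:7272264-7272513, plus strand): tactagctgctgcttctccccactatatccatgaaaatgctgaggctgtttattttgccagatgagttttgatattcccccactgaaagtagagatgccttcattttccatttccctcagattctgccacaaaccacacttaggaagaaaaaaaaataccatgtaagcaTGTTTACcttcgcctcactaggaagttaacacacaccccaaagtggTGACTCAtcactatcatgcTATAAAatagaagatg
Mmp12 (GRCm38.p6, chr9:7347124-7347373, plus strand): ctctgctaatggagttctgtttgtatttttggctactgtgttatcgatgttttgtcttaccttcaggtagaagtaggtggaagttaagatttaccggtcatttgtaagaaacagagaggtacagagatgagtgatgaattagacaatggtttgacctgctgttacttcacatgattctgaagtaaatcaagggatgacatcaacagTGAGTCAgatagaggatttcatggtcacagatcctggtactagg
Mmp8 (GRCm38.p6, chr9:7558179-7558428, plus strand): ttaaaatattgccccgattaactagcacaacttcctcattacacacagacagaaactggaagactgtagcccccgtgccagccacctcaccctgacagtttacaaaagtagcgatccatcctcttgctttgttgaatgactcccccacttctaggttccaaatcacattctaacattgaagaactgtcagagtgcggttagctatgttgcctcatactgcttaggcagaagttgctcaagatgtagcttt
Mmp13 holds the forkhead letters from 81, the AP-1 letters from 35 and the TATA letters from 16 bases before its start. Mmp12 holds the AP-1 letters from 44 bases before the start shown, and Mmp8 none of them. In the counts that follow a gene was included where any of its starts had a match. The upstream start of Mmp12 (7344397) and the downstream start of Mmp7 (7692341) held none of the motifs. AP-1 letters were found upstream of 6 of the 8 genes of this run (Mmp3, Mmp7, Mmp10, Mmp12, Mmp13 and Mmp20) and of 0 of the 26 other members with a promoter. TATA letters were found in 5 of the 8 and in 3 of the 26. The windows of the run had a median of 39.8% G or C (37.2% to 53.2% over 10 starts), and those of the other members 64.4% (53.6% to 80.0% over 27 starts). These are counts of letters in neighbouring genes of shared ancestry, and were not tested.

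The partners of these proteases were followed through 6 lists. In endothelial-like cells 59 genes of the lists were measured, 1 was higher and 3 were lower by size, against 1.01% of all genes in each direction. Of the ADAM and ADAM-like proteases, 7 of 13 were measured and 0 were called, with Adam10, a sheddase of Notch, at 459 and 418 CPM and Adam17 at 126 and 129 CPM as its most abundant genes. Of the activators and processing enzymes, 16 of 23 were measured. The most abundant was the cathepsin gene Ctsb, at 330 and 334 CPM. Plau, which makes the plasmin that activates several MMPs, was at 122 and 142 CPM, and Htra3, a serine protease, was lower at 124 and 71.7 CPM (-0.79 [-0.92, -0.66]). Of the inhibitors and clearance genes, 7 of 14 were measured. Spock2, a proteoglycan of the SPARC family, was lower at 600 and 377 CPM (-0.67 [-0.73, -0.62]).

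Of the proteoglycan and link substrates, 4 of 14 were measured and 0 called, with perlecan (Hspg2), a basement membrane proteoglycan, at 97.1 and 113 CPM and versican (Vcan) at 26.9 and 36.1 CPM. Of the fibrillar and microfibril substrates, 12 of 16 were measured and 0 called, with fibronectin (Fn1) at 1014 and 832 CPM. Of the vessel related substrates and partners, 13 of 16 were measured, led by the type IV collagen gene Col4a1 at 2432 and 2391 CPM. Thbs1, whose protein binds several of these proteases, was higher at 66.3 and 124 CPM (0.90 [0.78, 1.02]), and the reelin receptor gene Lrp8 was lower at 363 and 229 CPM (-0.66 [-0.74, -0.59]). Spock2, Htra3 and Lrp8 are leading genes of barrier-type subclusters, and with the subclusters weighted equally 1 list gene was called, higher, and 0 were lower.

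In pericyte-like cells no list gene was higher and 9 were lower by size, where 2.5% of all genes were higher and 3.83% lower. Of 14 fibrillar and microfibril substrates measured, 3 were lower: Col1a2 at 1649 and 1074 CPM (-0.62), Col1a1 at 648 and 419 CPM (-0.63) and Fbn1 at 128 and 79.9 CPM (-0.68). Of 8 proteoglycan and link substrates measured, Lum (44.4 and 13.7 CPM) and Hapln1 (35.8 and 8.88 CPM) were lower. Adam12 and Mme of 8 ADAM-like proteases, Lox of 18 activators and Thbs2 of 14 vessel related genes were also lower, and of 8 inhibitors 0 were. The fibroblast markers, which include Col1a1, Col1a2 and Lum themselves, summed to 4881 and 3461 CPM, as given above, and their part in these differences was not tested.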

How the data were processed

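Each library was deposited as a matrix of whole UMI counts per gene and cell barcode, and per the labels' protocols cells were captured in microwells with barcoded beads. Per the submitters' processing notes, the tools were fastp 0.24.0 and STARsolo 2.7.11b and the build was mm10. Gene coordinates and overlaps came from GENCODE M21. The annotation used for counting is not named in the notes.

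Barcodes were dropped below 500 genes or 1000 UMIs, or above 20% mitochondrial UMIs, and Scrublet predicted 534 and 516 doublets at an expected share of 8%, which were removed. Cells were clustered in Scanpy 1.11.5 (2000 variable genes without the members, 30 components, 20 neighbours, Leiden resolution 1, and 0.6 within the endothelial-like class) and named where at least 3 listed markers reached 50 CPM and 2-fold over the rest. The order in which competing names were ranked was settled after the clusters were seen. The members and all lists were chosen with earlier results of these data known. Genes named in full were the Timp genes and members at 50 CPM or more in a class in both libraries, and by genotype those called by size were named. Pathway genes were those called, then the most abundant. Values of single clusters and promoters shown were chosen after seeing values. Intervals used SciPy 1.17.1. On simulated counts of 8034 genes modelled on endothelial-like cells, the rule of size called 38.8% of genes changed 1.5-fold, 100% of those changed 2-fold and 0.0255% of unchanged genes. The simulation held counting error only, without variation between embryos, libraries or cells. Its shares are therefore not error rates or power for a difference between genotypes. Alternatives covered scaling (edgeR 4.0.16 TMM and DESeq2 1.42.0 size factors, used for scaling only), equal cluster weights, class definition, level and fold limits, cell filters, doublets and resolution. Clusters under 100 cells were not among the classes.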

Additional observations from a re-analysis of the deposited data

How the results depend on the processing

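No paired analysis was possible because each group has 1 library, and for the same reason no library could be left out. For single-gene ratios, a call under an alternative rests on the ratio and its interval, and the 10 CPM minimum was applied in the main run only. Of 381 values of 41 single-gene ratios under the alternatives run, 349 kept their call or their lack of one. Another 27 kept the direction but lost the call, 1 gained a call and 4 reversed. Direction was compared only for the 25 ratios called in the main run, so a change of sign in an uncalled ratio was not counted. Of 25 called ratios, 12 kept the call in each alternative. The 4 reversals were those of Adamts17 in the mixed radial glia and choroid plexus cluster, at 0.21 with doublets kept, 0.12 at resolution 0.6, 0.22 at resolution 1.5 and 0.33 with the members among the variable genes, against -0.87. The causes were not tested. The log2 ratio of Foxq1 in endothelial-like cells, -1.59, was -0.99 with clusters weighted equally, -0.80 with the mixed pericyte and endothelial cluster added, -1.03 in the marker gate, -1.08 with stricter cell filters, -1.70 with those filters and the mixed endothelial and erythroid cluster added (an alternative chosen after seeing the data) and -0.81 at resolution 0.6. The number of members higher in endothelial-like cells, 1, was 2 with the mixed cluster added and at resolution 0.6 (Mmp9 and Mmp11), 0 at a minimum of 50 CPM and with a 2-fold limit, and 3 with no minimum other than 3 UMIs. It was 1 in the marker gate (Mmp9) and with stricter cells (Adamtsl2), so Adamtsl1 was not among the calls in these 4 class definitions. The number lower, 0, was 1 in the marker gate (Mmp16), 1 with stricter cells (Adamts5, -1.13) and 2 with no minimum. The number of pathway genes called, 4, was 1 with equal weights, 0 with a 2-fold limit and 10 with stricter cells, where the large endothelial cluster took a mixed name and left the class. Members measured in any class, 33, were 21 at 50 CPM. Of the 29 members with the same highest class in both libraries, 19 had that class of the main run as highest in both at resolution 0.6. A member whose class was merged or renamed there was not counted, so 19 is not a measure of agreement between the libraries. Depth limits the low members most: the ratio of Adamts19 in pericyte-like cells rests on 2 and 18 UMIs and its interval runs from 1.03 to 6.24.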
